A study of Gallus gallus with 8 samples.

Results

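Transcripts for glucose transporters and glycolytic enzymes were followed in the endoderm of the chicken (Gallus gallus) yolk sac on embryonic days 1, 2, 3 and 4. The members were 10 genes chosen by symbol: the transporters SLC2A1, SLC2A2 and SLC2A3, the hexokinases HK1 and HK2, the phosphofructokinase PFKP, the phosphoglycerate kinase PGK1, the enolase ENO1 and the lactate dehydrogenases LDHA and LDHB. In the probe annotation of the array 8 of the 10 symbols were found, on 13 of 38439 probe sets, and SLC2A3 and PGK1 were absent as symbols. The current chicken gene table gives SLC2A3 as a synonym of SLC2A14 and PGK1 as a synonym of PGK2, so the probe sets of SLC2A14 and PGK2 are described beside the members without being counted among them.

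Each day was represented by 2 RNA samples, each on its own Affymetrix Chicken Genome Array, 8 arrays in all. A sample was a pool of tissue gathered every 4 h through the day, from untreated eggs of no named strain incubated at 38 °C. The endoderm had been parted from the mesoderm with dispase. No genetic change or drug was part of any group, and the day was the only label that differed between groups. The p-values below therefore measure the spread between pools, not between single embryos, and in bulk tissue fewer cells of a type cannot be told apart from less RNA per cell.

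Glucose enters cells through facilitative transporters of the SLC2A (GLUT) family, is trapped as glucose 6-phosphate by hexokinases and is split to pyruvate by glycolysis. Lactate dehydrogenase then converts pyruvate to lactate and back. In mammals SLC2A1 (GLUT1) is the high-affinity transporter of embryonic, proliferating and barrier cells, and SLC2A2 (GLUT2) is the low-affinity transporter of liver, intestine and kidney that carries glucose in either direction. The yolk sac endoderm is the epithelium through which the avian embryo takes up yolk, and it performs several functions of the later liver and gut.

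The deposited signals were not on a common level, with array medians of 11.8 to 26.0, highest on day 1 replicate 2. Values below are therefore signals after quantile normalization, in arbitrary units, and changes are on the log2(signal + 16) scale with their SE, which understates changes of dim genes. The comparison called "after day 1" sets the mean of days 2, 3 and 4 against day 1. The 3'/5' ratio of the beta-actin control probe sets, an index of RNA integrity, was 2.91 and 1.50 on the day 1 arrays and 1.74 to 4.30 on the later ones. The highest ratio was that of day 4 replicate 1. The median change after day 1 over all 23063 probe sets tested was -0.00, and -0.46 on the deposited scale. The endoderm markers APOB, TTR and APOA1, for secreted plasma and lipoprotein components, had day 1 means of 6849, 9222 and 9033. SOX17, CUBN, HNF4A, GATA6 and FOXA2 had day 1 means of 1288, 1634, 1145, 784 and 474. The others of the 11 endoderm markers were dimmer on that day, with AFP at 4.41, GATA4 at 21.9 and AMN at 161. GATA4 was dim on all arrays, at 17.3 to 26.5.

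After day 1 the 2 annotated GLUT members moved in opposite directions. SLC2A1 fell 10.9-fold, SLC2A2 rose 5.31-fold, and the 3 probe sets of HK1 fell 3.46-fold to 5.92-fold. LDHA and LDHB rose by 0.93 and 0.27 on the log2 scale, with adjusted p-values just under 0.05. HK2, PFKP and ENO1 did not pass the test. In limma 4 of the 13 member probe sets were lower, against 14.3% of all probe sets tested, and 3 were higher, against 12.4%. Of the 4 lower ones 3 belonged to HK1, and the remaining one was SLC2A1, singled out with its fall known. With each gene represented by its brightest probe set, 2 of 8 genes were lower and 3 were higher. On the deposited scale 6 of the 13 probe sets were lower, against 31% of all, and 1 was higher, against 4.86%. The 6 lower ones came from SLC2A1, HK1 and PFKP only. After quantile normalization the median change of the 13, SLC2A1 among them, was -0.42, against -0.00 over all probe sets tested. In 5 of them all 6 later arrays lay below both day 1 arrays (20% of all probe sets tested), in 2 they lay above (17.2%), and in 6 they overlapped. The 5 were again probe sets of SLC2A1, HK1 and PFKP.

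SLC2A1 had signals of 2547 and 3328 on the day 1 arrays, 382 and 234 (day 2), 187 and 179 (day 3), and 109 and 767 (day 4). All later arrays were below both day 1 arrays, and the widest gap between arrays of a later day was on day 4. As deposited, its signals were 2385 and 4359 on day 1, 416 and 210 (day 2), 166 and 156 (day 3), and 80.2 and 663 (day 4), with the same separation. The change after day 1 was -3.44 ± 0.56 (limma adjusted p = 0.00336). SLC2A1 had been singled out with its fall known, so its p-values here describe that fall and are no separate support for it. The step to day 2 alone was -3.21 ± 0.69 (limma adjusted p = 0.0331), that from day 1 to day 3 was -3.88 ± 0.69 (adjusted p = 0.00517), and that to day 4 was -3.23 ± 0.69 (adjusted p = 0.0126). These comparisons share the day 1 arrays. Between day 2 and day 4 the difference was -0.01 ± 0.69 (limma adjusted p = 0.995), and neither of these days could be placed above the other. Without day 4 replicate 2 the change from day 1 to day 4 was -4.54, and without day 4 replicate 1 it was -1.88. Day 4 replicate 1, the lower array, had the highest beta-actin 3'/5' ratio, 4.30, but a GAPDH 3'/5' ratio of 1.11, within the range of the others. The part of RNA integrity in this gap was not tested. Without day 1 replicate 2 the fall after day 1 was of similar size but missed the threshold (-3.30, adjusted p = 0.0582). The step to day 2 kept its size with 1 array left out, -3.57 to -2.87, but missed the threshold in 5 of 8 cases (adjusted p up to 0.228), and the step to day 4 missed it without either day 1 array (adjusted p = 0.0599 and 0.0962).

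SLC2A2 had signals of 64.1 and 68.1 on the day 1 arrays, 198 and 366 (day 2), 566 and 764 (day 3), and 742 and 227 (day 4). All later arrays were above both day 1 arrays. Day 4 replicate 2, the later array with the highest SLC2A1 signal, had the lowest SLC2A2 signal of days 3 and 4. SLC2A2 changed by 2.41 ± 0.40 after day 1 (limma adjusted p = 0.00381). On the deposited scale the change was 1.81 ± 0.39 (adjusted p = 0.00423), and without day 1 replicate 2 it was 2.45 (adjusted p = 0.0536). From day 1 to day 2 the difference was 1.80 ± 0.49, which missed the threshold (adjusted p = 0.0727), from day 1 to day 3 it was 3.04 ± 0.49 (adjusted p = 0.00375) and from day 1 to day 4 it was 2.39 ± 0.49 (adjusted p = 0.0113). Without day 1 replicate 1 or day 1 replicate 2 the step from day 1 to day 4 missed the threshold as well (adjusted p = 0.0685 and 0.0772).

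SLC2A14, whose synonyms include GLUT3 and SLC2A3, had signals of 316 and 407 on the day 1 arrays in its brighter probe set. They were 83.7 and 91.4 (day 2), 53.1 and 52.1 (day 3), and 3.35 and 71.1 (day 4). The groups did not overlap, and the change after day 1 was -2.50 ± 0.47 (limma adjusted p = 0.00592). Its dimmer probe set, at 0.665 to 25.1 on all arrays, gave a difference of -0.48 ± 0.27 (adjusted p = 0.232). GLUT3 is in mammals a high-affinity transporter, best known from neurons.

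**Figure D1:**
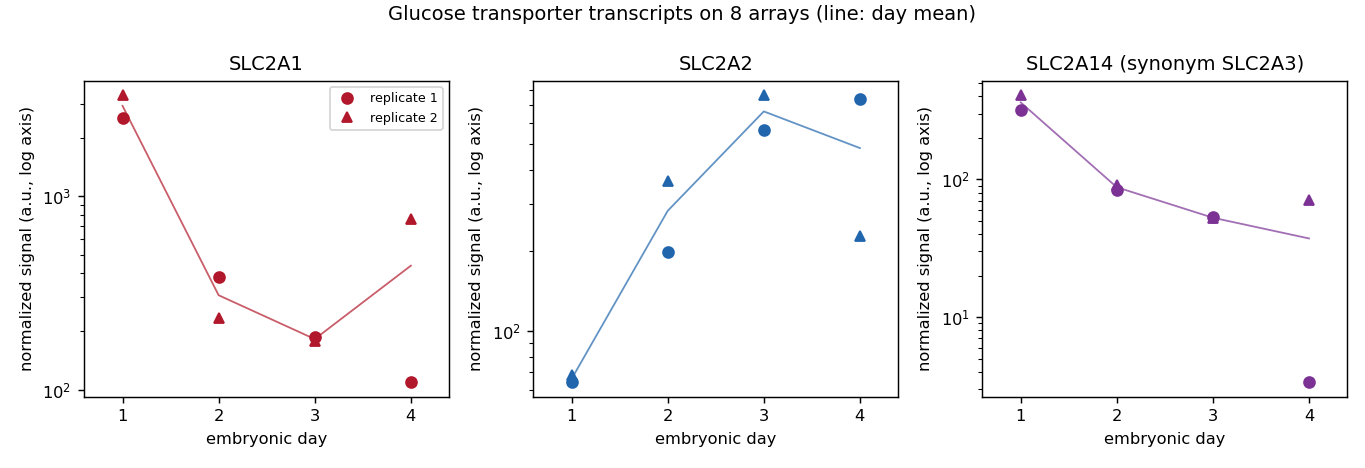
Normalized signal (arbitrary units, log axis) of SLC2A1, SLC2A2 and SLC2A14 against embryonic day, with a point for each of the 8 arrays and a line through the day means. SLC2A1 lay at 2547 and 3328 on day 1 and at 109 to 767 later, SLC2A2 at 64.1 and 68.1 on day 1 and at 198 to 764 later.

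Among the hexokinases, which commit glucose to metabolism in the cell, HK1 fell and HK2 did not pass the test. The brightest HK1 probe set had signals of 260 and 276 on the day 1 arrays, 192 and 28.2 (day 2), 50.0 and 6.31 (day 3), and 0.616 and 38.0 (day 4). The 2 arrays of day 2 were far apart, with replicate 1 close to day 1. The change after day 1 was -2.57 ± 0.66 in this probe set (limma adjusted p = 0.0213), and -2.08 ± 0.61 and -1.79 ± 0.57 in the other two (adjusted p = 0.0365 and 0.0485). In the dimmest of the 3 the day 2 replicate 1 signal, 145, was above the day 1 signals of 143 and 136. HK1 had day means of 268 ± 10.9, 110 ± 116, 28.2 ± 30.9 and 19.3 ± 26.4 (SD, n = 2), so that only day 1 had a spread that was small against its mean. Without either day 1 array the HK1 fall missed the threshold (adjusted p = 0.123 and 0.152).

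HK2, the inducible hexokinase of muscle and tumours in mammals, had signals of 43.2 and 27.3 on day 1, 78.8 and 49.6 (day 2), 33.3 and 19.5 (day 3), and 32.1 and 26.9 (day 4). The day 2 arrays were above all the others, but the step from day 1 to day 2, 0.64 ± 0.30, did not pass (limma adjusted p = 0.245). The change after day 1 was 0.07 ± 0.24 (adjusted p = 0.862), and its sign turned on the deposited scale (-0.39) and with arrays shifted to the same median (-0.081).

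PFKP, the platelet-type subunit of the enzyme that sets the pace of glycolysis, had signals of 411 and 394 on day 1, 304 and 176 (day 2), 296 and 209 (day 3), and 277 and 231 (day 4). All later arrays lay below both day 1 arrays. The change after day 1 was -0.68 ± 0.24 and missed the threshold (limma adjusted p = 0.0657), while it passed on the deposited scale (-1.31, adjusted p = 0.00926) and with arrays shifted to the same median (-1.01, adjusted p = 0.0181). The other probe sets of PFKP gave differences of -0.42 ± 0.20 and -0.24 ± 0.22 (adjusted p = 0.144 and 0.458).

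The summed signal of 8 mesoderm and mesenchyme markers was 2372 and 3109 on the day 1 arrays, 10030 and 406 (day 2), 3412 and 401 (day 3), and 453 and 350 (day 4). That of 7 endothelial markers was 2625 and 1635, 2980 and 192, 719 and 256, and 403 and 151. Day 2 replicate 1 and day 3 replicate 1 therefore stood apart from their partners in both sums, with COL1A2, a fibrillar collagen gene, at 2669 and 1081 against 21.8 and 15.6. HK1, HK2, SLC2A1 and the brightest PFKP probe set were higher on these 2 arrays than on their partners. For SLC2A1 the day 3 arrays differed little, at 187 and 179. SLC2A2 and the brighter ENO1 probe set were lower on both arrays. The other PFKP probe sets, LDHA, LDHB, SLC2A14 and the dimmer ENO1 probe set were each lower on 1 of them. The share of all probe sets that were higher on these 2 arrays is not given here. With both of these arrays left out, a choice made after seeing the data, the HK1 change after day 1 was -3.21 (limma adjusted p = 0.00216), that of PFKP -0.88 (adjusted p = 0.0206) and that of SLC2A1 -3.55 (adjusted p = 0.00575). Since the arrays removed were the higher ones of their days for these genes, larger falls follow from that choice and are no separate evidence. The marker counts below stand beside the shares of all probe sets tested, of which 14.3% fell and 12.4% rose after day 1 in limma. On the deposited scale these shares were 31% and 4.86%. At an unadjusted p under 0.05 in limma, 4810 of all 23063 probe sets were lower and 4241 higher after day 1. Of the mesoderm and mesenchyme markers 1 of 8 fell after day 1 (TWIST1) and 0 rose in limma. At an unadjusted p under 0.05, 5 were lower and 0 higher, 5 were lower on the deposited scale, and the median change of the list was -1.10. Of the endothelial markers 2 of 7 fell and 2 rose, while on the deposited scale 3 fell and 0 rose. All 4 measured epiblast and streak markers fell, with sums of 2095 and 3472 on day 1 and 111 to 237 later, and the highest of the later sums was that of day 4 replicate 2. Of 3 tested cardiac muscle markers 2 fell, with sums of 750.2 to 762.7 on day 1 and 124 to 370 later. The other tested marker, MYH7, went the other way, with day means of 62.7, 228, 148 and 159. It was not called after day 1 but was higher at an unadjusted p under 0.05 in limma. MYH7 alone made up 98.9 to 358 of the later sums. Of 6 primitive erythroid markers 5 rose and 1 fell, from sums of 448 to 2813 to sums of 12687 to 41163. Of 4 tested ectoderm and neural markers 1 fell (NEFM), and 2 were lower on the deposited scale. The sums were 5260 to 6353 on day 1 and 5827 to 7164 later, but the keratin gene KRT7 alone made up 5044 to 7100 of them. NEFM, a neurofilament gene, had day means of 158, 13.5, 12.6 and 15.2, and TFAP2A, a transcription factor gene of surface ectoderm, had 48.0, 36.2, 21.8 and 30.5 without passing. Of 11 yolk sac endoderm markers 5 rose and 0 fell in limma, with 1 lower at an unadjusted p under 0.05, and their sums were 28232 to 32997 on day 1 and 39364 to 52071 later. AFP, the fetal serum protein gene among them, had a mean of 4.41 on day 1 and 7413 later. SOX17, an endoderm transcription factor gene, went the other way, with day means of 1288, 503, 74.9 and 499. Its arrays were far apart on day 2, at 252 and 755, and on day 4, at 54.4 and 944 (replicate 2). SOX17 missed the threshold after day 1 (-2.65, limma adjusted p = 0.0580). It was the 1 marker of the list that fell on the deposited scale, where 4 rose. No marker that was measured was listed at 0 on any array. The part of these other cells in the falls of SLC2A1, SLC2A14 and HK1 and in the rise of SLC2A2 was not tested.

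**Figure D2:**
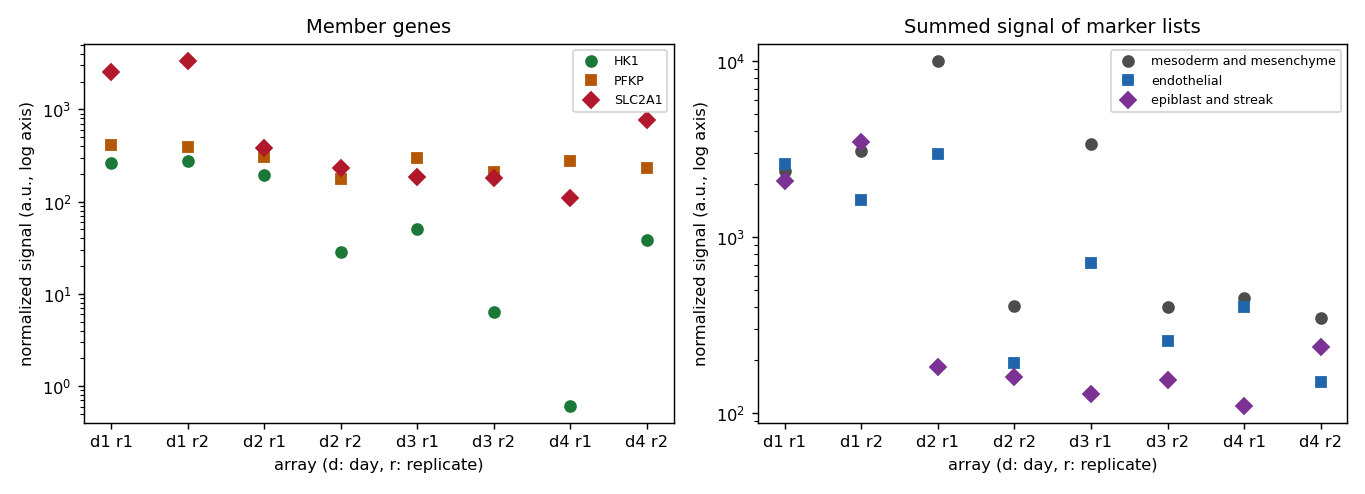
Normalized signal (arbitrary units, log axis) on each of the 8 arrays, for HK1, PFKP and SLC2A1 on the left and for the summed markers of mesoderm and mesenchyme, endothelium, and epiblast and streak on the right. Day 2 replicate 1 and day 3 replicate 1 were high in mesoderm and mesenchyme markers, at 10030 and 3412 against 406 and 401 in their partners.

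ENO1, the enolase of the later steps of glycolysis, had signals of 8138 and 9350 on day 1, 6708 and 7885 (day 2), 7796 and 8334 (day 3), and 7796 and 8644 (day 4). The day 2 arrays lay below both day 1 arrays and those of days 3 and 4 overlapped with day 1, and the change after day 1 was -0.15 ± 0.10 (limma adjusted p = 0.300). Its second probe set was at 1638 and 4150 on the day 1 arrays and at 1412 to 2883 later, a change of -0.46 ± 0.31 (adjusted p = 0.306). With arrays shifted to the same median the sign of the brighter probe set turned (0.085).

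LDHA, whose subunit predominates in the muscle form of lactate dehydrogenase, had signals of 668 and 1570 on day 1, 2184 and 1553 (day 2), 1902 and 2457 (day 3), and 2192 and 1685 (day 4). The day 1 arrays were far apart, and day 2 replicate 2 lay just below the higher of them. The change after day 1 was 0.93 ± 0.30 (limma adjusted p = 0.0493), and it missed the threshold on the deposited scale (0.52, adjusted p = 0.285) and with arrays shifted to the same median (0.82, adjusted p = 0.0742). With 1 array left out it missed the threshold in 6 of 8 cases. Without day 1 replicate 1 it was 0.33 (adjusted p = 0.453), and without day 1 replicate 2 it was 1.56.

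LDHB, for the heart-type subunit, had signals of 8452 and 7290 on day 1, 9449 and 10175 (day 2), 9350 and 9308 (day 3), and 9112 and 9350 (day 4). All later arrays were above both day 1 arrays. The change was small, 0.27 ± 0.09 (limma adjusted p = 0.0498), and missed the threshold on the deposited scale (0.16, adjusted p = 0.411), while with arrays shifted to the same median it was 0.47 (adjusted p = 0.0168). The LDHB and ENO1 signals lay near the upper end of the range, where the highest signal of any probe set was 11415 to 13740 by array. With 1 array left out the adjusted p of LDHB was 0.384 at most, and it missed the threshold in 7 of the 8 cases.

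**Figure D3:**
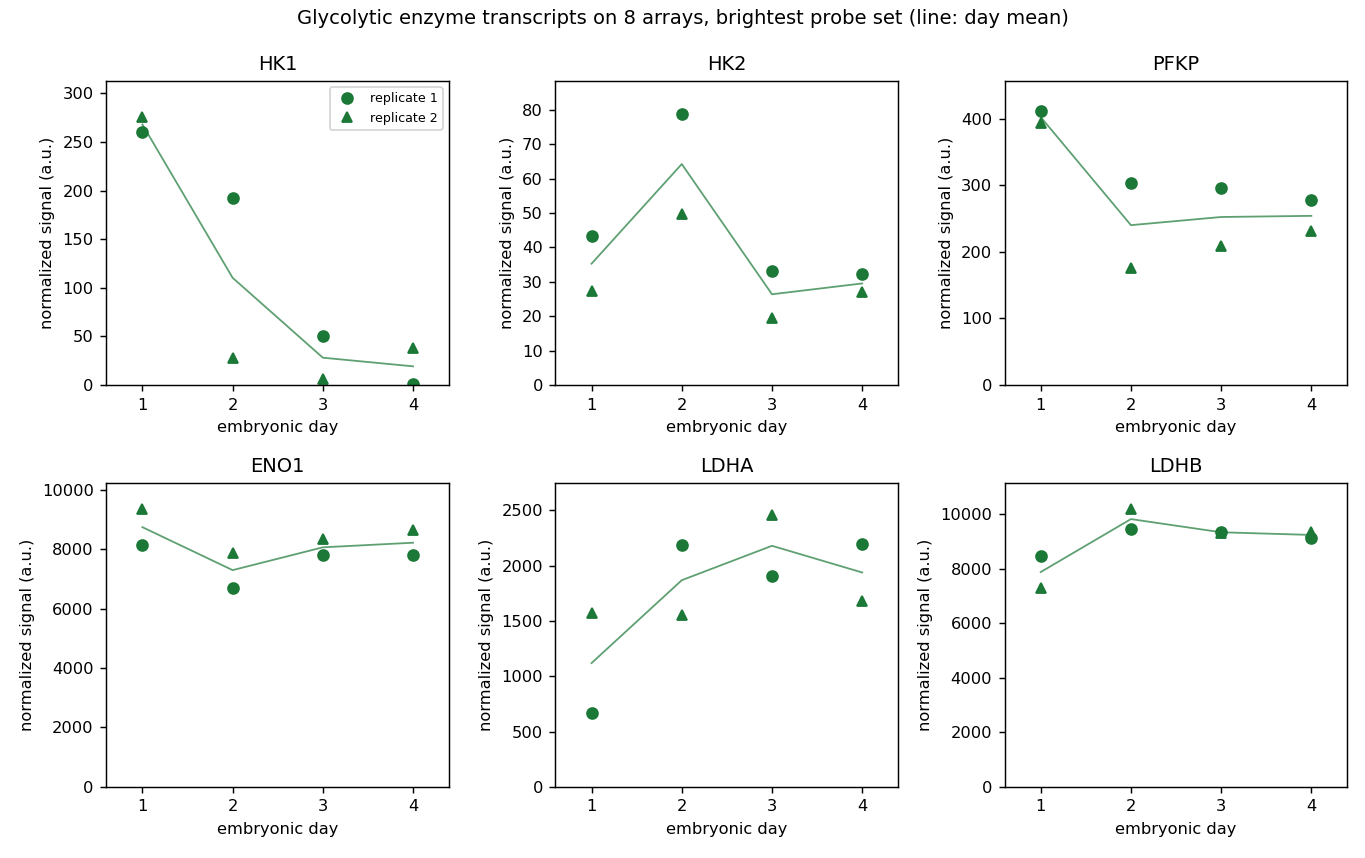
Normalized signal (arbitrary units, axis from 0) of the brightest probe set of HK1, HK2, PFKP, ENO1, LDHA and LDHB against embryonic day, with a point for each array and a line through the day means. HK1 fell from 260 and 276 on day 1, the day 2 arrays of HK1 lay at 192 and 28.2, and ENO1 and LDHB lay between 6708 and 10175 on all arrays.

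Day by day the members split as follows. On day 2, 1 of 13 probe sets was lower than on day 1 (2.02% of all probe sets tested) and 0 were higher (3.68% of all). The lower one was SLC2A1, singled out with its fall known. At an unadjusted p under 0.05 in limma 3 were higher and 2 lower, against 2500 and 2672 of all 23063. On day 3, 3 were lower (13.5% of all), from 2 genes, and 1 was higher (12% of all). On day 4, 2 were lower (12% of all) and 1 was higher (10.6% of all). On the deposited scale 1 was lower on day 2 (3.73% of all) and 0 were higher (1.61%), again with limma. On that scale 5 were lower on day 3 (22.8%) and 1 was higher (5.29%), and 6 were lower on day 4 (27.5%) and 1 was higher (3.43%). On both days the lower ones were probe sets of SLC2A1, HK1 and PFKP only. Between day 2 and day 4, limma called 0 of 13 in either direction and 0 of all 23063 probe sets (0%), with 1 member and 3281 probe sets at an unadjusted p under 0.05. On the deposited scale limma also called 0 members there, against 0.00434% of all probe sets higher and 0.00867% lower. The member with the unadjusted p under 0.05 was HK2, at -0.80 ± 0.30 (adjusted p = 0.291). Without day 1 replicate 2, which leaves 1 array on day 1, fewer probe sets were called lower against day 1. This held for the members and for all probe sets alike, so it is no property of the members.

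The fall of SLC2A1 was then set against the change of each other member on the same arrays, as the log2 ratio to SLC2A1. SLC2A1 had been singled out with its fall known. After day 1 the change of 9 of 12 probe sets lay above that of SLC2A1, which was so for 97.4% of all probe sets tested, so the count is no property of the members. Below it lay 0 of 12, against 0.00867% of all. The 3 that did not pass were those of HK1, with differences of 0.88 ± 0.94, 1.36 ± 0.94 and 1.65 ± 0.94 (limma adjusted p = 0.355, 0.149 and 0.0818). As a description, SLC2A2 differed by 5.85 ± 0.93, LDHA by 4.37 ± 0.91, LDHB by 3.71 ± 0.89, HK2 by 3.51 ± 0.94, the brighter ENO1 probe set by 3.29 ± 0.89 and the brightest PFKP probe set by 2.76 ± 0.93. All ratios carry the same SLC2A1 values, which makes the limma p-values of this comparison too small, and nearly any probe set passes against a gene with so large a fall. With each probe set's own spread, a fit added after the data were seen, 9 of 12 again passed, against 95% of all. Without day 1 replicate 2, which leaves 1 array on day 1, fewer members passed. The share of all probe sets in that fit is not given here.

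Over the 8 arrays the Pearson correlation of the normalized log2 signal with SLC2A1 was -0.96 for SLC2A2, 0.91 for SLC2A14, 0.84 for the brightest HK1 probe set and 0.88 for PGK2. It was 0.68 for PFKP, 0.52 for ENO1, -0.71 for LDHA, -0.77 for LDHB and -0.00 for HK2. Of 10257 genes with a single symbol, the 6 most like SLC2A1 were RPGRIP1L (0.987), RCOR3, NAP1L1 and HSP90AB1 (0.986 each), LRWD1 and DPYSL4 (0.985 each). HSP90AB1, a cytosolic chaperone gene, had signals of 2647 and 2555 on day 1 and 691 to 1517 later, the last on day 4 replicate 2. NAP1L1, a histone chaperone gene, had 5686 and 6045 on day 1 and 2318 to 3944 later, the highest of them again on day 4 replicate 2. The arrays share their days, so these values describe the 8 arrays only.

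Of the other glycolytic enzymes, 7 of 12 tested fell after day 1. Of 23 listed genes 13 had a probe set and 12 were tested. The count that fell compares with 14.3% of all probe sets tested, while 0 rose (12.4% of all). At an unadjusted p under 0.05 in limma 2 were higher and 7 lower, against 4241 and 4810 of all 23063 probe sets. The median change of the list was -0.74 against -0.00 over all probe sets. On the deposited scale 7 of 12 fell, against 31% of all probe sets, whose median change there was -0.46. GPI, which turns glucose 6-phosphate into fructose 6-phosphate, had signals of 3587 and 3168 on day 1, 2096 and 1649 (day 2), 814 and 956 (day 3), and 683 and 966 (day 4), a change of -1.60 ± 0.18 (limma adjusted p = 0.000615). Of its other probe sets one fell by 1.74 and one differed by -0.48 (adjusted p = 0.0697).

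PGK2, annotated with the synonym PGK1 and encoding the first ATP-making enzyme of the pathway, had signals of 3387 and 4415 on day 1, 2148 and 1482 (day 2), 941 and 770 (day 3), and 821 and 1084 (day 4). No array of one day from day 1 to day 3 overlapped with an array of another, and the change after day 1 was -1.76 ± 0.20 (limma adjusted p = 0.000666). BPGM, which makes the 2,3-bisphosphoglycerate of mammalian red cells, changed by -2.21 ± 0.21 (adjusted p = 0.000277). PGAM1, the mutase before enolase, changed by -0.76 ± 0.13 (adjusted p = 0.00463). The other members of the list that fell, named here to complete the count, were the aldolase gene ALDOC (-1.08 ± 0.19), the pyruvate kinase gene PKLR (-1.06 ± 0.20) and PFKM (-0.72 ± 0.21).

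GAPDH and TPI1, enzymes of the middle of the pathway, did not pass. Like those of LDHB and ENO1, their signals lay toward the upper end of the range. The highest deposited signal of any probe set was 11415 to 13740 by array. GAPDH had signals of 7483 and 8644 on day 1 and 8389 to 9068 later (0.10 ± 0.09, limma adjusted p = 0.433), and TPI1 had 6537 and 6708 on day 1 and 5949 to 8119 later (0.09 ± 0.12, adjusted p = 0.612). The deposited 3' GAPDH control probe set read 9744 and 10473 on day 1 and 9444 to 10875 later. HKDC1, a hexokinase-domain gene, had 561 and 548 on day 1 and 951 and 961 (day 4), a change of 0.77 ± 0.22 from day 1 to day 4 (adjusted p = 0.0375), but 0.07 on the deposited scale (adjusted p = 0.891).

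**Figure D4:**
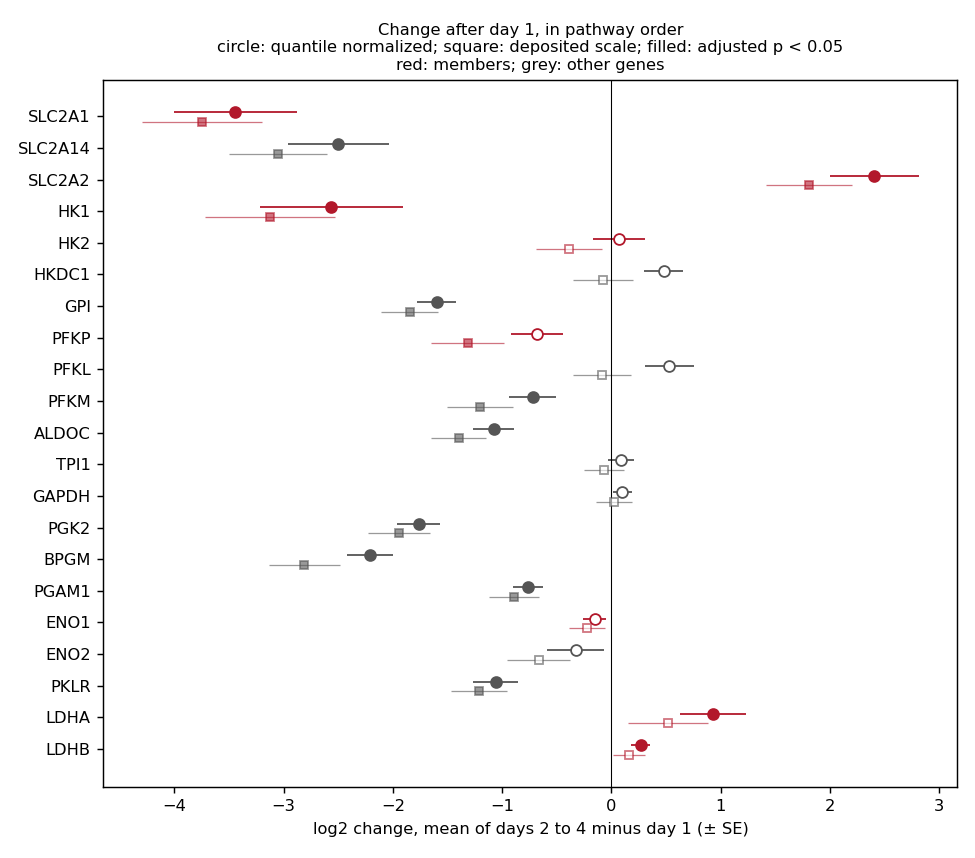
Log2 change of the mean of days 2 to 4 against day 1 (± SE) for transporters and enzymes in pathway order, after quantile normalization (circles) and on the deposited scale (squares), filled where the adjusted p is under 0.05. SLC2A1 (-3.44) and SLC2A2 (2.41) lie at opposite ends, and GPI, PGK2, BPGM and PKLR lie below 0 on both scales. LDHA and LDHB pass after quantile normalization but not on the deposited scale.

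Of 15 other glucose and hexose transporters 12 had a probe set and 10 were tested. After day 1, 3 rose while 0 fell, against 12.4% and 14.3% of all probe sets. At an unadjusted p under 0.05 in limma 4 were higher and 0 lower, against 4241 and 4810 of all 23063. On the deposited scale 1 rose and 1 fell, against 4.86% and 31% of all. SLC2A10 (GLUT10), a transporter of intracellular membranes in mammals, had signals of 38.8 and 22.7 on day 1, 91.9 and 130 (day 2), 269 and 256 (day 3), and 264 and 130 (day 4), a change of 2.06 ± 0.28 (limma adjusted p = 0.00167). SLC2A8 (GLUT8) changed by 1.29 ± 0.18 (adjusted p = 0.00188) and SLC2A13, a proton-coupled inositol transporter, by 0.93 ± 0.27 (adjusted p = 0.0339). Both missed the threshold on the deposited scale (adjusted p = 0.0678 and 0.560). The sodium-coupled transporter SLC5A1 had 697 and 571 on day 1 and 331 to 725 later and did not pass (adjusted p = 0.538), and was the gene that fell on the deposited scale (-0.75, adjusted p = 0.0455).

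Genes that control glycolysis were measured for 12 of 16 listed, and of 10 tested 1 rose and 3 fell, against 12.4% and 14.3% of all probe sets. As deposited, 1 was higher and 5 were lower, against 4.86% and 31% of all. EPAS1 (HIF2A), a hypoxia-inducible transcription factor, changed by 1.02 ± 0.14 (limma adjusted p = 0.00184). HIF1A changed by -0.93 ± 0.23 (adjusted p = 0.0182), TIGAR, which lowers fructose 2,6-bisphosphate, by -1.24 ± 0.29 (adjusted p = 0.0160), and MYC by -2.89 ± 0.62 (adjusted p = 0.0103). MYC, a transcription factor gene, had 758 and 638 on day 1, 600.4 and 99.8 (day 2), 154 and 32.4 (day 3), and 21.0 and 19.6 (day 4), and was, like HK1, higher in the day 2 and day 3 arrays with high mesoderm markers.

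Among genes for pyruvate and lactate handling, of 16 tested (17 of 20 listed had a probe set) 6 rose and 3 fell after day 1, against 12.4% and 14.3% of all probe sets. As deposited, 2 rose and 6 fell, against 4.86% and 31% of all. SLC16A3 (MCT4), the lactate exporter of glycolytic cells in mammals, had signals of 227 and 230 on day 1, 41.7 and 16.4 (day 2), 5.11 and 21.3 (day 3), and 1.44 and 10.6 (day 4), a change of -3.04 ± 0.31 (limma adjusted p = 0.000429). EMB, an ancillary protein of monocarboxylate transporters, changed by -1.71 ± 0.24 and PDK3, a pyruvate dehydrogenase kinase, by -1.49 ± 0.26. PDK4, another kinase that restrains pyruvate dehydrogenase, rose by 1.44 ± 0.18 (adjusted p = 0.00115), SLC16A7 (MCT2) by 1.81 ± 0.30 (adjusted p = 0.00372), the mitochondrial pyruvate carrier gene MPC2 by 0.67 ± 0.12 and the phosphatase gene PDP2 by 0.91 ± 0.19. MPC2 and PDP2 missed the threshold on the deposited scale (adjusted p = 0.147 and 0.559). In the pentose phosphate pathway 1 of 4 tested genes rose, RPIA (1.16 ± 0.19, limma adjusted p = 0.00361), against 12.4% of all probe sets. There 0 fell in limma, against 14.3% of all, and 0 were lower at an unadjusted p under 0.05, against 4810 of all 23063.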

How the data were processed

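The authors deposited 1 signal intensity per probe set and array, linear and in arbitrary units; MAS5 is named per the submitters' processing notes, with neither its version nor a target level for scaling stated there. Per the labels' protocols 5 µg of total RNA was labelled with biotin in 1 cycle. Control probe sets (96) were set aside. Of the other 38439, 27168 carried 1 symbol, 177 several and 11094 none in the platform annotation. Arrays were quantile normalized on log2(signal + 16), since they were not on a common level. Probe sets with a mean above the 40th percentile (9.83) were kept, all 13 of the members among them. The contrasts between days came from limma 3.58.1 (R 4.3.3; intensity trend, all 8 arrays, 4 residual and 4.64 prior degrees of freedom, Benjamini-Hochberg over 23063 probe sets at 0.05). With 2 arrays per day precision is limited.

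Members and the 5 pathway and 7 marker lists were chosen with earlier results of these data known. A gene with several probe sets was represented by the brightest. Named were all members, up to 4 risen and 4 fallen of each pathway list by adjusted p, and the 6 genes most correlated with SLC2A1. The after day 1 comparison was tested on simulated data with 200 changed probe sets among 23063. With variances from the prior it found 14.1% of falls of log2 1 and 88.1% of log2 2 (4.48% of calls false). With the variance limma gave each probe set, which is drawn toward the intensity trend, it found 34.9% and 97.2% (7.20% false). In the data 2867 probe sets were called higher and 3287 lower, far more than the 200 changed in the simulation. The Benjamini-Hochberg cutoff was therefore stricter in the simulation, and its rates are not the detection rates in the data. Figures used matplotlib 3.10.9 and Python 3.11.15.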

Additional observations from a re-analysis of the deposited data

How the results depend on the processing

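Counts are of the 13 member probe sets unless stated. Counts of all probe sets moved between settings as well. On the deposited scale 22.8% of all were lower for day 3 and 27.5% for day 4, against 13.5% and 12% after quantile normalization. A changed member count is therefore no property of the members by itself. After day 1, where 3 were higher, 1 was higher on the deposited scale, without a filter, without the intensity trend, with a pseudocount of 1, with the replicate block, and with day 2 and day 3 replicate 1 both left out (chosen after seeing the data). The calls lost were those of LDHA and LDHB. The count of lower members after day 1, 4, was smaller without a filter and with a pseudocount of 1. From day 1 to day 2, where 1 was lower, 0 were without a filter. From day 1 to day 3, where 3 were lower, 5 were on the deposited scale (22.8% of all). That count was also larger with arrays shifted to the same median, and smaller without a filter and with a pseudocount of 1. From day 1 to day 4, where 2 were lower, 6 were on the deposited scale (27.5% of all). That count was also larger after the median shift and with a pseudocount of 64. The count of higher members for day 3 and for day 4, 1 each, was larger after the median shift. Beyond the deposited scale the shares of all probe sets are not given beside these counts, so the counts are not set against them. The count above SLC2A1, 9 of 12, was smaller with those 2 arrays left out, which leaves 1 array on day 2 and on day 3. The share of all probe sets in that fit is not given here.

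With each array left out in turn, a day keeps 1 array that is assumed to vary like the others, so changes are given here, not counts. After day 1 SLC2A1 was -3.87 to -2.97, SLC2A2 2.14 to 2.68, HK1 -2.93 to -2.19 and PFKP -0.81 to -0.56. LDHA was 0.33 to 1.56, LDHB 0.17 to 0.38 and ENO1 -0.26 to -0.06. The member counts, also that above SLC2A1, depended on the array left out. Without day 1 replicate 2 fewer probe sets were called lower after day 1, among the members and over all probe sets alike.

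The signs that turned were those of changes that had not passed. After day 1, HK2 was -0.39 on the deposited scale, -0.081 after the median shift, -0.10 with those 2 arrays left out, and -0.15 to 0.29 with 1 array left out; ENO1 was 0.085 after the median shift, 0.12 for day 3 and 0.17 for day 4, and for day 4 -0.19 to 0.011 with 1 array left out. HK2 for day 4 was -0.37 to 0.069. Between days 2 and 4, PFKP was -0.18 and -0.11 and LDHA -0.13 and -0.0598 on those 2 scales, SLC2A1 was 0.057 with a pseudocount of 64 and 0.32 with those 2 arrays left out. With 1 array left out SLC2A1 was -1.33 to 1.30, SLC2A2 -0.23 to 1.40, PFKP -0.25 to 0.48 and LDHA -0.18 to 0.31. The cause of these shifts was not tested.

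Of all 23063 probe sets, 2867 rose and 3287 fell after day 1, and 1121 and 7149 on the deposited scale; 5019 were lower after the median shift. For day 2 the counts were 849 and 466, and 371 and 860 on the deposited scale. In that comparison 308 were lower with a pseudocount of 1, and 288 without a filter. For day 3 they were 2779 and 3107, and 1219 and 5261 on the deposited scale; for day 4, 2446 and 2772, and 790 and 6344. Between days 2 and 4 the counts were 0 and 0, and 1 and 2 on the deposited scale. The differences between replicates correlated at 0.38 between days 2 and 3, and at -0.11 to 0.046 between all other pairs of days. These values gave no sign of a pairing by replicate number over the 4 days, though weak correlations cannot exclude one. Days 2 and 3 shared part of the difference. With the replicate block 1 member probe set was higher and 5 lower after day 1, and PFKP passed (limma adjusted p = 0.0429). The share of all probe sets called with the block is not given here, so these counts are not set against it.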
